A study of Homo sapiens with 4 samples.

Results

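Genes whose symbols start with RBM, for RNA-binding motif, were examined for exon skipping in 293T cells after an antisense oligonucleotide against SNORD89. Members were all rows of the authors' skipped exon table with such a symbol and a mean of at least 20 junction reads over the 4 libraries. A junction read spans the joint between 2 exons. Of 65601 events in the table, 237 belonged to 37 RBM symbols, and 214 events on 172 exons of 36 symbols had enough reads. The other 23 events, among them every event of RBMS3, fell under the minimum. Over the whole table, 54503 events met it.

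293T is a human embryonic kidney cell line. Per the labels, 1 group received 70 nM of a gapmer, a modified DNA strand that directs RNase H to cut the RNA it pairs with, against the small nucleolar RNA SNORD89. The other group received no oligonucleotide, and no control oligonucleotide is named. Whether those cells received the lipid reagent is not clear from their labels. The labels of both groups give a change of medium at 24 hours and harvest at 48 hours, and 2 libraries each, marked as biological replicates. Poly(A) RNA was sequenced as pairs of 150 bases. No header or label ties a set of the table to a group, so directions are given only as the first set against the second set. Within a set the libraries are called library 1 and library 2, which are names and pair nothing.

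RBM proteins carry RNA recognition motifs and act at most steps of an mRNA's life. Many sit in the spliceosome, which removes introns, and many of their own transcripts are alternatively spliced. Several family members adjust their own level through a poison exon, a cassette exon with an early stop codon whose inclusion sends the transcript to nonsense-mediated decay. A change in the inclusion of such an exon, or of an exon that shifts the reading frame, alters how much or which protein a gene makes.

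The exons below are those the results turn on, chosen after their values were seen. Coordinates are those of the deposited table (hg19, per the submitters' processing notes), and sequences are read 5′ to 3′ from the GENCODE 29 transcript that matches the exon. The first 3 exons, from RBM27 (chr5:145631274-145631438, plus strand) and RBM41 (chrX:106331965-106332069 and chrX:106356627-106356698, minus strand), belong to called events. Capitals mark the first and last 3 bases next to the splice sites.
RBM27 exon of 165 nt: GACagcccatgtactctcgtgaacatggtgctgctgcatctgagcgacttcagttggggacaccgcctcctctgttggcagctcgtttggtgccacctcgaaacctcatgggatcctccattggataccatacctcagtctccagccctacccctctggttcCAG
RBM41 exon of 105 nt: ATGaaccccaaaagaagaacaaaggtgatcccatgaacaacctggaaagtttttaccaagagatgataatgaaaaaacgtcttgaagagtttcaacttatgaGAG
RBM41 exon of 72 nt: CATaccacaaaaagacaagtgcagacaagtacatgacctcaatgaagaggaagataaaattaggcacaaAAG

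RBM23 (minus strand) has an exon with a pair of alternative starts. The longer form, of 67 nt, lies at chr14:23377542-23377608. Capitals mark the bases that the called 48-nt form, at chr14:23377542-23377589, lacks.
RBM23 exon of 67 nt: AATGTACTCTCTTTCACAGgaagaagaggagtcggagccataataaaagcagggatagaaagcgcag

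RBM38 (chr20:55974984-55975024, plus strand) and RBM39 (chr20:34328447-34328519, minus strand) each have an exon that the annotation places in nonsense-mediated decay transcripts. Capitals mark the stop codon that ends the annotated reading frame inside the exon.
RBM38 exon of 41 nt: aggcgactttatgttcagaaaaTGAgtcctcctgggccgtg
RBM39 exon of 73 nt: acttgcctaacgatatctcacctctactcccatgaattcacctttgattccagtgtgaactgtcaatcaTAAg

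RBM10, RBM5 and RBM6, paralogues that regulate splice site choice, each have a coding exon of 74 nt, whose skipping shifts the reading frame. They lie at chrX:47034418-47034491, chr3:50137965-50138038 and chr3:50036873-50036946, all on the plus strand. Capitals again mark the first and last 3 bases. The RBM10 and RBM5 exons were identical at 61 of 74 bases (82.4%), RBM5 and RBM6 at 51 (68.9%), and RBM10 and RBM6 at 48 (64.9%).
RBM10 exon of 74 nt: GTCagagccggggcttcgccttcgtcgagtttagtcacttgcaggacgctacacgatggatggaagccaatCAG
RBM5 exon of 74 nt: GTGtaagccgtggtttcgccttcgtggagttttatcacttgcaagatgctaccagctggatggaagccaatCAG
RBM6 exon of 74 nt: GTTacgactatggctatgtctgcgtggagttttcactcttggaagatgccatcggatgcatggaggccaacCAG

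Junction reads in the table summed to 38613055 and 39012939 for the first set and to 42868431 and 43929373 for the second. The median member event had 471 and 402 reads in the first set, against 358 and 393 in the second. The whole table has 3280 events where library 2 of the second set is without reads, against 513 to 624 in the other libraries. Among the 51 members with a mean inclusion level between 0.05 and 0.95, the libraries of the first set differed from each other by a median of 0.0324 and those of the second by 0.0627. The libraries of a set were more than 0.1 apart for 6 of these events (11.8%) in the first set and 16 (31.4%) in the second, against 25.9% and 45.2% of all such tested events. Between libraries of different sets, 15.7% to 33.3% of the 51 events were more than 0.1 apart, so the second set's libraries differed from each other about as often as libraries of different sets.

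Most RBM exons were included nearly always in every set. The inclusion level is the share, from 0 to 1, of an event's junction reads that support the middle exon of 3. The reads are first divided by the length each form offers. Only the junctions of those 3 exons count, so the level is no share of all transcripts of a gene. Its mean was above 0.95 for 136 member events (63.6%, against 66.1% of all tested events) and under 0.05 for 27. The 51 events in between lay on 43 exons of 23 symbols. Member exons had a median length of 97 nt, against 118 nt for all tested exons, and 36% of them were a multiple of 3 long, against 40.3%. Of the 172 exons, 104 were annotated as coding, 13 as partly coding, 14 as outside the coding sequence and 14 in nonsense-mediated decay transcripts. A further 24 lay in transcripts without coding sequence and 3 were not matched.

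An event was called where the authors' deposited table gives a false discovery rate (FDR) under 0.05 and a difference in inclusion level of at least 0.1. By this rule 6 RBM events were called (2.8%), against 2.71% of all tested events, so the share was near that of the whole table. The first set was higher in 3 of them (1.34% of all tested events were called in that direction) and lower in 3 (1.37% of all tested). Among members with inclusion between 0.05 and 0.95, 6 of 51 were called (11.8%, against 11.0% of all such tested events). The authors' deposited table gives an FDR under 0.05 to 13 members, where 5.72% of all tested events have one, and a p-value under 0.05 to 21 members (9.81%, against 14.3%). The median difference over the members was -0.001 and the median absolute difference 0.006, against 0.011 over all tested events. Differences are first minus second set as the authors deposited them, and were recomputed from the inclusion levels where a library is left out. They ran from -0.238 to 0.262, with 80 events higher in the first set, 119 lower and 15 at 0. Over all 54503 tested events, 22501 were higher, 29280 lower and 2722 at 0, so the whole table leaned the same way.

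**Figure D1:**
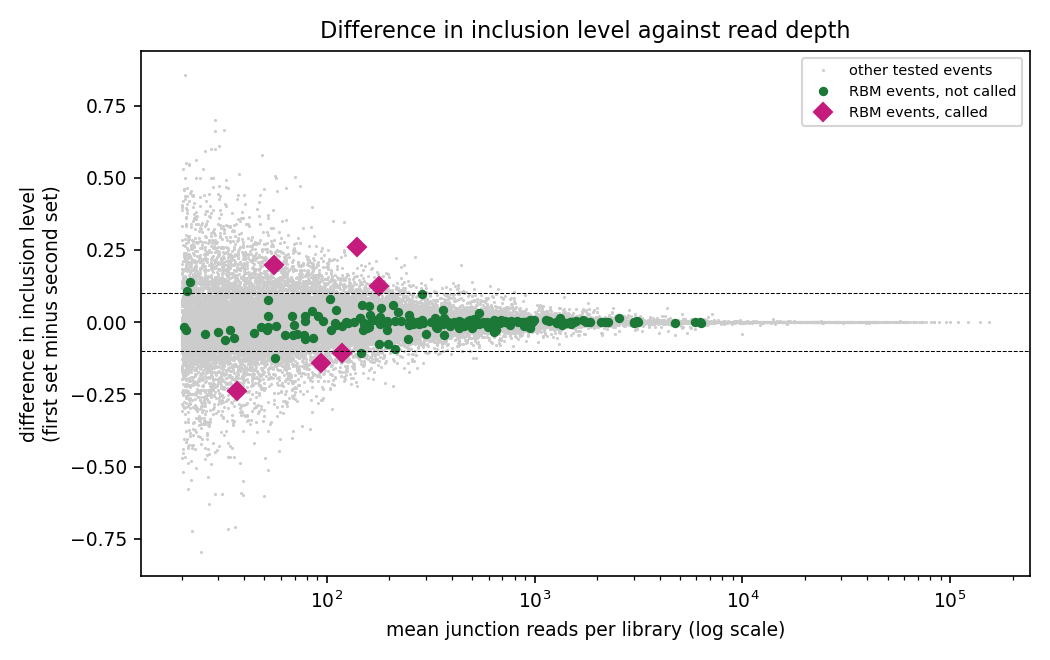
Difference in inclusion level (first set minus second set, vertical axis) against mean junction reads per library (horizontal axis, log scale) for all 54503 tested events in grey, the RBM events not called in green and the 6 called RBM events as diamonds. Dashed lines mark differences of 0.1 and -0.1. The RBM events beyond these lines lie toward the left of the plot, and those with most reads lie close to 0.

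The authors' test was set beside a quasi-binomial test, whose error is the counting error scaled by the scatter between libraries of a set, pooled over all events. No RBM event passed it at a Benjamini-Hochberg adjusted p under 0.05 (limma's moderated dispersion, over all tested events), where 0.0294% of all tested events did. At an unadjusted p under 0.05 it gave 17 of the 214 members, against 6.72% of all tested events. The smallest adjusted p among members in this quasi-binomial test with limma's moderation was 0.12, for RBM27. A limma fit with precision weights passed 1 RBM event, that of RBM27 (0.467%, against 0.657% of all tested events). Without library 1 of the second set the quasi-binomial test passed 5, on exons of RBM10, RBM27, RBM38, RBM39 and RBM4 (2.34%, against 3.22% of all tested events). Neither share was above that of the whole table. The 6 events below therefore rest on the authors' test. In each of them the inclusion levels of both libraries of one set lay above both of the other. The same held for 1168 of the 1477 called events of the whole table, so it does not set the RBM events apart.

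**Figure D2:**
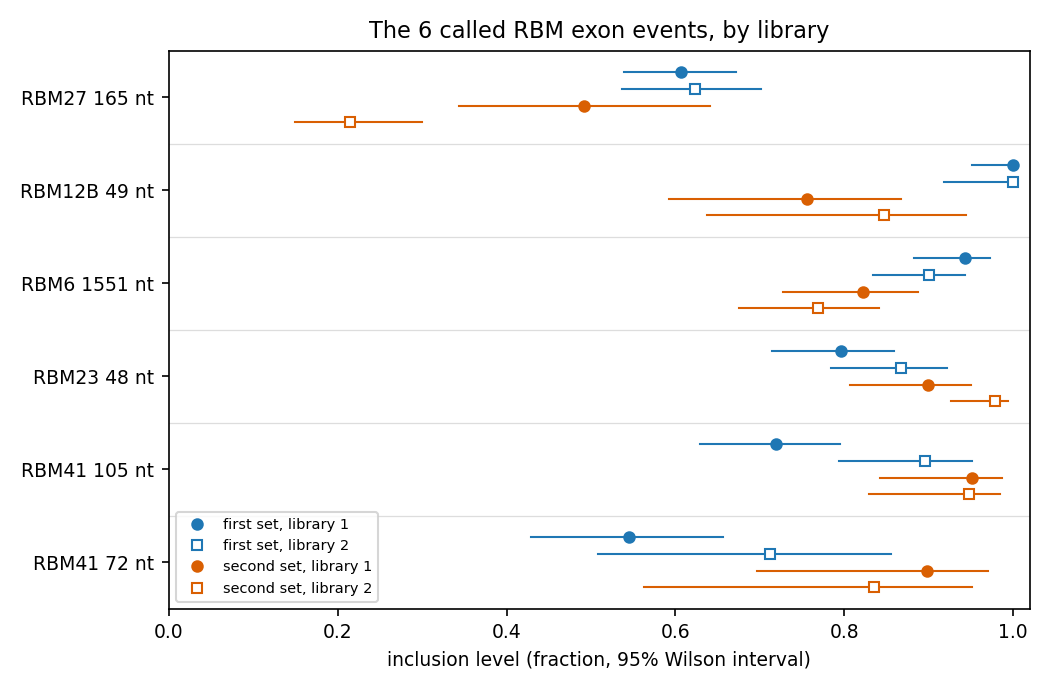
Inclusion level (horizontal axis, a fraction) in each of the 4 libraries for the 6 called RBM events, with bars for the 95% Wilson interval from junction reads. The first set (blue) is to the right in RBM27, RBM12B and RBM6 and to the left in RBM23 and both RBM41 exons, and library 2 of the second set stands apart in RBM27.

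RBM27 encodes a zinc finger protein that, with its paralogue RBM26, links polyadenylated nuclear RNA to the exosome, the RNA-degrading complex. Its 165-nt coding exon, the exon 9 printed above, was included at 0.607 (95% Wilson interval 0.539 to 0.672) and 0.623 (0.537 to 0.701) in libraries 1 and 2 of the first set. It was included at 0.492 (0.344 to 0.641) and 0.215 (0.149 to 0.3) in the second set. These levels came from 262, 172, 44 and 82 junction reads. Library 2 of the second set was far below the other 3, whose intervals overlapped. In the authors' deposited table, the sets differ by 0.262 with an FDR of 0.035. Without library 2 of the second set the difference was 0.123, and without library 1 of that set it was 0.4. Over all its events, RBM27 had 42.7 and 30.7 junction reads per 1000000 in the first set, against 10.7 and 12.3 in the second. None of the 4 other RBM27 events was called.

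RBM26-AS1, a transcript antisense to the RBM26 region that makes no RBM protein, had 1 event of 18 to 26 reads, at 1 in 3 libraries and 0.724 in library 1 of the second set. RBM26, the paralogue, had 3 events, and its differences lay between -0.016 and -0.004. Its coding exon of 72 nt was included at 0.154 and 0.121 in the first set and at 0.166 and 0.14 in the second. The sets overlapped.

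RBM12B, a protein of several RNA recognition motifs with no well described role, had a called exon of 49 nt on chromosome 8, outside the coding sequence. Every read of the first set supported inclusion, 99 in library 1 and 57 in library 2. The lower bounds of the 95% Wilson intervals there were 0.951 and 0.918. In the second set inclusion was 0.756 (0.593 to 0.868) from 41 reads and 0.847 (0.638 to 0.945) from 25 reads. The second set was lower in both libraries, on 8 and 3 skipping reads. The difference was 0.199 (FDR 6.92e-05 in the authors' deposited table). The other RBM12B exon with enough reads, of 68 nt, was measured in 2 events with differences of 0.109 and -0.04, and in neither did the sets separate.

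RBM6 is a relative of RBM5 and RBM10 whose loss is known in tumours. Its large exon 3, of 1551 nt and partly coding (chr3:50004631-50006181), was included at 0.943 and 0.901 in the first set and at 0.822 and 0.769 in the second. Skipping was seen in 6, 11, 14 and 20 reads of 205, 212, 143 and 153. Both libraries of the second set were lower. An FDR of 0.0103 stands beside a difference of 0.126 in the authors' deposited table. Without the correction for form length the difference was 0.074, below the size asked for. A nested form of the exon, of 1279 nt, shares the same skipping reads, so it is no second measurement. Its levels were 0.964, 0.944, 0.871 and 0.841, differing by 0.098 at FDR 0.00303 per the authors' deposited table.

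RBM41, a paralogue of a protein of the minor spliceosome, held 2 of the 3 called events that were lower in the first set. Its 72-nt coding exon was included at 0.545 and 0.712 in the first set and at 0.898 and 0.835 in the second, from 75, 28, 28 and 17 reads. Per the authors' deposited table the difference was -0.238, at an FDR of 0.03. The 105-nt exon, annotated in a nonsense-mediated decay transcript, was included at 0.719 and 0.896 in the first set and at 0.952 and 0.948 in the second, from 145, 94, 70 and 64 reads. For that exon the difference was -0.142, at FDR 0.0139 by the authors' deposited table. A 404-nt form that contains the 105-nt exon had levels of 0.82, 0.948, 0.982 and 0.972 and a difference of -0.093.

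All 3 of these RBM41 events count the same skipping reads, 27 and 6 in the first set and 2 in each library of the second. Library 1 of the first set holds most of them. Without that library the differences were -0.154 for the 72-nt exon, -0.054 for the 105-nt exon and -0.029 for the 404-nt form. Without library 2 of the first set the 105-nt exon differed by -0.231. The 72-nt exon was also measured between nearer flanking exons, on 223, 165, 125 and 111 reads. There its levels were 0.301, 0.273, 0.332 and 0.283, the sets overlapped, and the difference was -0.02. The 105-nt exon between other flanks had levels of 0.75, 0.779, 0.815 and 0.824, a difference of -0.055 at FDR 1 per the authors' deposited table.

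One RBM41 exon was higher in the first set. The 94-nt exon at chrX:106359381-106359474, in a transcript without coding sequence, was included at 0.12 and 0.127 in the first set and at 0.0687 and 0.062 in the second. Reads numbered 185 to 236 per library. The sets did not overlap, and the difference was 0.058, at FDR 0.0303 by the authors' deposited table, under the size asked for.

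RBM23 is the closest paralogue of RBM39, a splicing factor that works with U2AF. Its 48-nt exon was called in the event with an intermediate flank on one side, where the levels were 0.796 and 0.868 in the first set, against 0.899 and 0.979 in the second. Skipping reads numbered 23 and 12 in the first set, against 7 and 2 in the second, of 89 to 142 reads. In the authors' deposited table, the sets differ by -0.107 with an FDR of 0.0105. The difference was -0.071 without library 1 of the first set and -0.067 without library 2 of the second. The 113-nt exon next to it shares these skipping reads and differed by -0.027.

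Between its nearest flanks the 48-nt exon of RBM23 had a lower inclusion level, with no separation of the sets. Levels there were 0.37 and 0.438 in the first set, against 0.388 and 0.403 in the second, from 613, 550, 388 and 407 reads. The difference was 0.009. Between its most distant flanks the levels were 0.978, 0.895, 0.879 and 0.908 and the difference was 0.043. The 67-nt form printed above had levels of 0.19, 0.205, 0.199 and 0.281. The called difference in RBM23 was thus seen with 1 pair of flanking exons, and the other events on the 48-nt exon had the opposite sign.

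**Figure D3:**
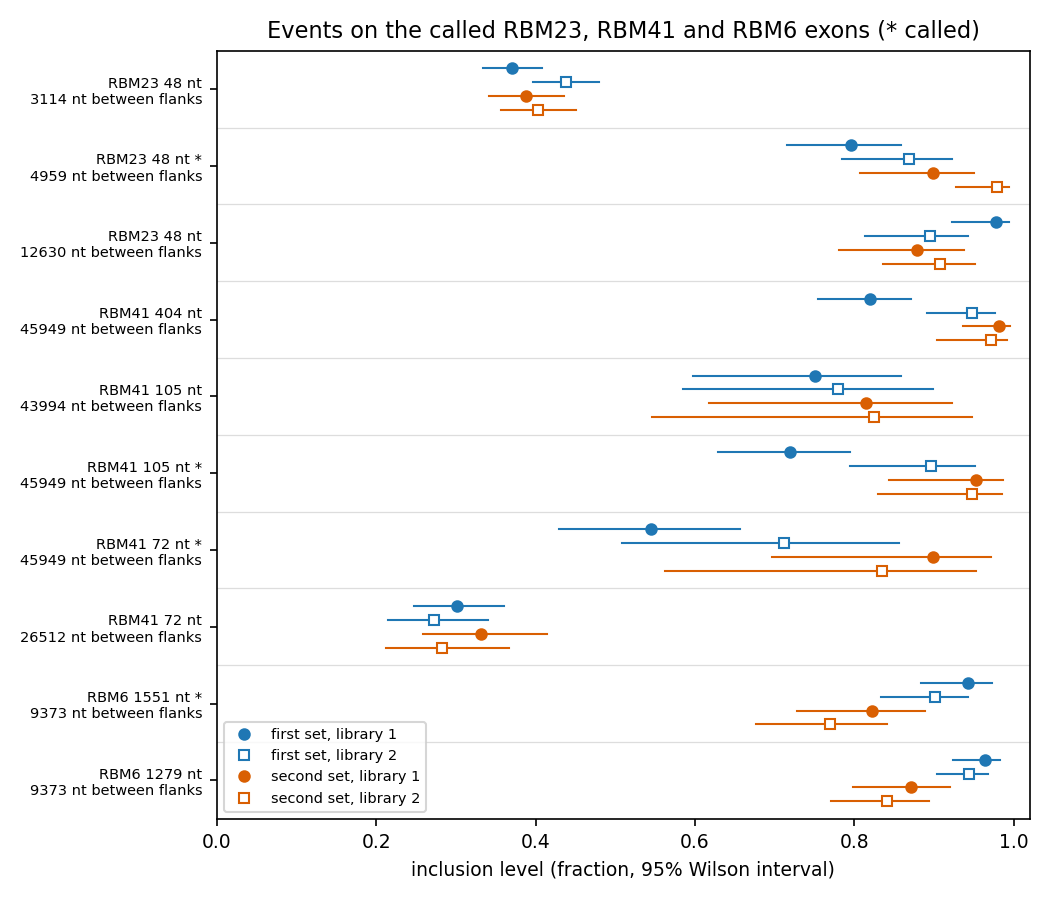
Inclusion level by library, with 95% Wilson intervals from junction reads, for each event on the called exons of RBM23, RBM41 and RBM6. The 404-nt form of RBM41 and the 1279-nt form of RBM6 are also drawn. An asterisk marks a called event. The nucleotides given under each name are those between the flanking exons. The RBM23 48-nt exon and the RBM41 72-nt exon keep the sets apart in the starred event and not in the others, and the 3 RBM41 events with the same span share their skipping reads.

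Sharing of reads was common in the family. The 214 events used 171 skipping junctions, of which 35 belonged to more than 1 event, and 78 events shared theirs with another. Of the 6 called events, 4 did so. Inclusion junctions can be shared too, as in the RBM23 events above, and such sharing was not counted. Events of a gene are therefore not independent counts.

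By role, genes of the spliceosome and its assembly gave 120 events, of which 4 were called (3.33%, against 2.71% of all tested events), 1 higher and 3 lower in the first set. These were the RBM6, RBM23 and RBM41 events. The 2 exosome adaptors with events, RBM26 and RBM27, gave 8 events and 1 call (12.5%). Regulators that bind pre-mRNA gave 29 events and no call, with 3 events (10.3%, against 5.72% of all tested) at an FDR under 0.05 in the authors' deposited table. Genes of translation, mRNA stability and ribosome making gave 37 events and no call. RBM8A, the exon junction complex subunit Y14, gave 3 events, and RBM15, a subunit of the m6A writer, gave 1, none of them called. The remaining genes gave 16 events and 1 call, that of RBM12B (6.25%). With so few calls in each role, no role is set apart by its share.

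Among the pre-mRNA regulators, RBM38 had 3 events, and all 3 were lower in the first set. RBM38 is a target of p53 that binds and stabilises mRNA. Its 41-nt exon with the stop codon printed above was included at 0.00314 and 0.00747 in the first set and at 0.0176 and 0.0325 in the second, on 2, 5, 9 and 23 inclusion reads. The difference was -0.02 (FDR 0.00974 in the authors' deposited table). Both libraries of the second set were higher, although the exon stayed rare in all. Without library 2 of the second set the difference was -0.012. The 55-nt coding exon of RBM38, whose skipping shifts the reading frame, was included at 0.936 and 0.93 in the first set and at 0.961 and 0.975 in the second. For it the difference was -0.035, at FDR 0.0157 by the authors' deposited table. The third exon, of 96 nt, stayed between 0.00789 and 0.023.

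RBM4 is a regulator of neuronal and muscle exons, and RBM4B is its close copy, so that reads could be split between them. The 691-nt exon of RBM4 (partly coding exon 2) had 2154 to 3006 reads per library. It was included at 0.815 and 0.821 in the first set and at 0.788 and 0.819 in the second. The exon of 110 nt, in a transcript without coding sequence, was included at 0.0451 and 0.0347 in the first set and at 0.0535 and 0.109 in the second. For it the difference was -0.042, at FDR 0.0251 by the authors' deposited table, and without library 2 of the second set the difference was -0.014. RBM4B's 677-nt exon differed by -0.074, at FDR 0.0557 per the authors' deposited table. Both events of the read-through symbol RBM14-RBM4 had overlapping sets.

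RBMX, a splicing factor on the X chromosome with many processed copies, had 6 events, and their differences lay between -0.014 and 0.003. Its copy RBMXL1 had 1 event, of an exon outside the coding sequence, included at 0.642 and 0.585 in the first set and at 0.787 and 0.557 in the second.

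The paralogous 74-nt exons were not called. RBM10 included its exon at 0.985 and 0.983 in the first set and at 0.981 and 0.988 in the second. In RBM5 the exon was included at 0.877 and 0.795 in the first set and at 0.756 and 0.819 in the second, and the sets overlapped. In RBM6 it was included at 0.853 and 0.856 in the first set and at 0.911 and 0.914 in the second, in the event with most reads. The RBM6 sets did not overlap, and the difference was -0.058, at FDR 0.187 by the authors' deposited table. The same RBM6 exon between other flanks had levels of 0.377, 0.36, 0.408 and 0.542 and a difference of -0.106, at FDR 0.434 per the authors' deposited table. With yet another flank its levels were 1, 1, 0.959 and 1, with a difference of 0.02.

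RBM39 had more events than any other family member, 26 on 17 exons, and none was called, where 2.71% of all tested events were. Only 4 of the 26 had a mean inclusion level between 0.05 and 0.95. RBM39 joins U2AF in choosing 3′ splice sites and is the protein degraded after aryl sulfonamide drugs. Its 73-nt exon with the stop codon printed above was included at 0.105 and 0.0903 in the first set and at 0.11 and 0.0564 in the second, from 1117 to 1593 reads. Library 2 of the second set was lowest and the sets overlapped. The difference was 0.014, and it was 0.041 without library 1 of the second set and -0.013 without library 2. In that exon, the quasi-binomial test (limma's moderated dispersion) gave an adjusted p of 0.0163 without library 1 of the second set. Between other flanks the same exon had levels of 0.896, 0.945, 0.937 and 0.911. The 66-nt coding exon of RBM39 was included at 0.924 and 0.953 in the first set and at 0.92 and 0.943 in the second. Its 90-nt form had levels of 0.768, 0.836, 0.743 and 0.798.

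Over all 16 member events annotated in nonsense-mediated decay transcripts, differences ran from -0.055 to 0.014. None was called, where 2.71% of all tested events were, and the 105-nt exon of RBM41 counts here only through its event that was not. The authors' deposited table gives 1 of the 16 (6.25%, against 5.72% of all tested events), the RBM38 exon of 41 nt, an FDR under 0.05. With 16 events, neither count sets them apart. The median difference was -0.002.

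Some of the deepest alternative exons of the family showed similar levels in all 4 libraries, and others did not. RBM42, which is part of the tri-snRNP, included its 66-nt coding exon at 0.244 and 0.248 in the first set and at 0.242 and 0.266 in the second, from 1054 to 1860 reads. RBM10 included its 231-nt coding exon 4 at 0.843 and 0.879 in the first set and at 0.893 and 0.867 in the second. RBM5 included its 85-nt exon 16 at 0.881 and 0.88 in the first set and at 0.89 and 0.885 in the second. The 54-nt exon of RBM23 varied more, from 0.863 (0.828 to 0.892) in library 1 of the second set to 0.932 (0.908 to 0.95) in its library 2, with intervals that did not overlap. The same held for the 73-nt exon of RBM39 described above, at 0.11 (0.0953 to 0.127) and 0.0564 (0.0461 to 0.0689) in those libraries. RBM34, a nucleolar protein, included its 137-nt exon at 0.923 to 0.944. These 6 exons had between 356 and 1860 reads in each library.

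**Figure D4:**
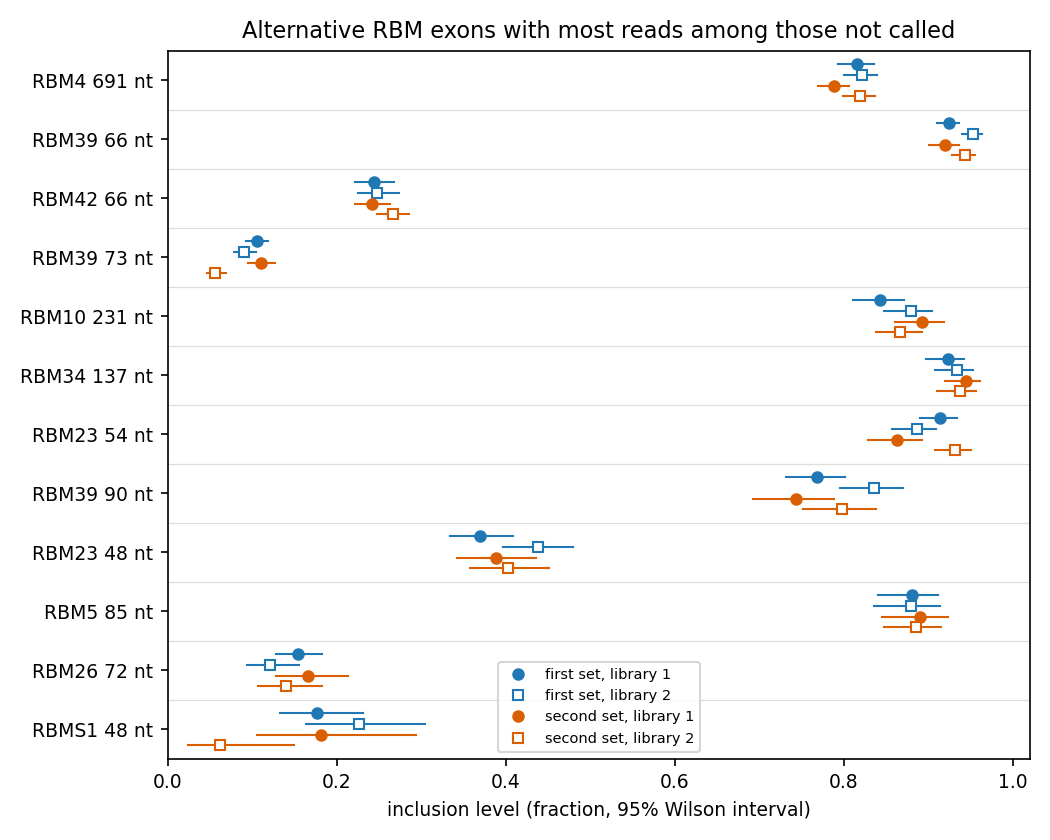
Inclusion level by library, with 95% Wilson intervals from junction reads, for the 12 named alternative RBM exon events with most reads among those not called and with an FDR of at least 0.05 in the authors' deposited table. Levels run from the 73-nt exon of RBM39 at 0.0564 to 0.11 up to its 66-nt exon at 0.92 to 0.953, and library 2 of the second set is the lowest library for that 73-nt exon and for RBMS1.

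Among alternative exons with fewer reads, RBMS1, which binds single-stranded DNA and mRNA 3′ ends, included a 48-nt exon at 0.176 and 0.226 in the first set and at 0.181 and 0.0617 in the second, on 50 to 195 reads. The authors' deposited table gives that exon a difference of 0.08 and an FDR of 0.34, and without library 2 of the second set the difference was 0.02. RBM15 included a 111-nt exon at 0.663 and 0.494 in the first set and at 0.551 and 0.712 in the second, with 69 to 111 reads, so libraries of one set differed more than the sets. RBMS2 included an 87-nt exon at 0.713 and 0.861 in the first set and at 0.819 and 1 in the second, on 30 to 84 reads, and the sets overlapped.

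RBM3, RBM8A, RBM14, RBM17, RBM19 and RBM22 held no event beyond 0.02 in either direction. That was not particular to them, since it also held for RBM10, RBM25 and RBM42, among others. RBM3, the cold-induced protein, had a mean of 3033 reads in its median event, and its differences lay between -0.001 and 0.001. RBM8A had a mean of 6232.5 reads in its median event and differences between -0.003 and 0.001. None of the 6 genes named first had an event with a mean inclusion level between 0.05 and 0.95, where 1474 of the 1477 calls of the whole table lie. A difference of the size asked for all but requires such a mean level. RBM10, RBM25 and RBM42 did have such an event and were not called either.

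At the read minimum, both neighbouring events belong to RBM25, a U1-associated splicing factor. The event just inside, a 68-nt exon at 20.5 mean reads, had levels of 0.117, 0.0709, 0.222 and 0. The event just outside, a 122-nt exon at 18.5 mean reads, had levels of 0.653, 0.767 and 0.524, and library 2 of the second set was empty there.

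Genes listed beforehand as partners of RBM proteins were read in the same way, 40 symbols of which 33 had tested events. The link of each gene to an RBM protein was not tested. Of their 176 events, 5 were called (2.84%, against 2.71% of all tested), 3 higher and 2 lower in the first set. ZCCHC8, the partner of RBM7 in the nuclear exosome targeting complex, held 2 of them on nested exons of 66 and 285 nt. The 66-nt exon was included at 0.961 and 1 in the first set and at 0.668 and 0.548 in the second, from 39 to 74 reads. The authors' deposited table gives it a difference of 0.372 and an FDR of 1.38e-07. GPATCH8 held 2 events lower in the first set, with differences of -0.109 and -0.177. The second of these was at 0.383 in library 2 of the second set and at 0.0637 to 0.106 in the other libraries, and without that library the difference was -0.039. KIAA1429, a subunit of the m6A writer, held 1 event at 0.124. There library 1 of the second set alone was low, at 0.733, and without it the difference was -0.009.

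Junction reads summed over the events of a gene moved with the sets. Per 1000000 junction reads of a library, 24 of 36 RBM genes (66.7%) were higher in both libraries of the first set than in either of the second, against 60.4% of all genes with a tested event. RBM42 and RBM8A were lower in both (5.56%, against 13.9%). The median ratio of first to second set was 1.37 for RBM genes and 1.29 for all genes. Events of a gene share reads, so these sums are no measure of expression, and their part in the differences above was not tested.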

How the data were processed

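Exon skipping was read from 1 table that the authors deposited, in the rMATS layout for junction reads, per the file headers. Each cell of the deposited reads and inclusion levels holds 2 values, 1 per library. The deposited p-value, the FDR and the difference between sets, a score of at most 1 in size, are the authors'. Reads were trimmed with cutadapt and aligned with STAR to hg19, per the submitters' processing notes. The rMATS version, the strand setting and the annotation release are not given in the sources used here. Recomputed inclusion levels lay within 0.0005 of the deposited fraction.

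Events were tested at a mean of 20 or more reads and called at an FDR under 0.05 and a difference of at least 0.1. A quasi-binomial model was fitted to all 54503 tested events in R 4.3.3, with its dispersion moderated by squeezeVar of limma 3.58.1 and never under 1, and with Benjamini-Hochberg adjustment. Its prior came out as 1 dispersion common to all events. It was tested on simulated data, where it made many false calls when the scatter was set to grow with depth. Sets with only 1 form were left out of its dispersion, a detail settled after counts from the real table had been seen.

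Wilson 95% intervals cover counting error only, since reads are not independent molecules. The 214 events were matched to GENCODE 29 by gene identifier and exon spacing, 176 by 3 exons, 34 by the exon and 1 flank and 4 not at all; no coordinate was converted. All p-values rest on these libraries only. Those of the quasi-binomial test combine counting error with the spread between libraries of a set, which is pooled over all events.

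Named events were the called ones, those with an unadjusted quasi-binomial p under 0.05, a difference of at least 0.1 and sets apart, the deepest alternative event of each gene of a list, and the 10 deepest alternative exons. Other events in the text were chosen after their values were seen. The members, lists and rules were chosen with earlier results of these data known. Alternatives are in the closing section.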

Additional observations from a re-analysis of the deposited data

How the results depend on the processing

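The 6 called RBM events became 2 at a difference of at least 0.2 and 1 at an FDR under 0.01. With only the deepest event of each exon kept they became 4, and the 1477 called events of the whole table became 1078. Leaving out each library in turn gave 4 to 6 RBM events. In this and the next leave-one-out counts of calls, only the difference was recomputed. The deposited FDR was kept and no test was rerun, so such a count could fall but not rise. All tested events called, 1477, became 719 at a minimum of 50 reads, 2559 with no minimum, 2499 at a difference of 0.05, 525 at 0.2 and 748 at an FDR under 0.01; leaving out each library gave 1002 to 1418. The 5 partner events became 2 at a difference of 0.2 and 3 at an FDR under 0.01, and 4 to 5 with a library left out. The count of RBM events past the quasi-binomial test, 0, became 1 (RBM27, adjusted p 0.000907, where 358 of all 54503 tested events passed) by limma with precision weights, and 0 again with a pseudocount of 1. Leaving out each library gave 0 to 5, and the 5 came without library 1 of the second set (events of RBM10, RBM27, RBM38, RBM39 and RBM4, where 1756 of all 54503 tested events passed), a fit in which library 2, the one that stands apart, is alone in its set and is assumed to scatter like the first. A dispersion prior with a trend on the rarer form and a dispersion that counts sets with only 1 form, both chosen after seeing the data, gave 0. The called RBM23 event, at -0.107, reversed to 0.009 and 0.043 with other flanking exons, in events that share inclusion reads with it. The causes were not tested. No paired analysis was possible because the table ties reads to no replicate numbers. The planned edgeR test on inclusion and skipping reads was not run. At 17 to 75 reads per library, as in the 72-nt exon of RBM41, intervals span most of the differences shown.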
